A study of Triticum aestivum and Triticum urartu with 56 samples.

Results

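The regions described here are peaks of H3K4me3 shorter than 1500 bp that carry H3K9ac in spikes of the wheat line JW1. They were chosen from 2 deposited peak lists, as every H3K4me3 peak below that length that overlapped an H3K9ac peak by 1 bp or more. Of 193251 H3K4me3 peaks, 186651 were shorter than 1500 bp, and 123021 of these met the rule. The other 63630 short peaks had no H3K9ac, and 6600 H3K4me3 peaks were 1500 bp or longer. Presence of H3K9ac and length were therefore the selection itself, and values of length and of H3K9ac below are a description with no test.

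H3K4me3 and H3K9ac are histone modifications of transcribed promoters. In plants, H3K4me3 marks the first nucleosomes downstream of a transcription start site (TSS), and H3K9ac is added by histone acetyltransferases at the same promoters and at some distal regulatory elements. Cap analysis of gene expression (CAGE) reads the capped 5′ end of RNA, so that a tag gives the base and the strand at which transcription began. Bread wheat is a hexaploid with A, B and D subgenomes, and each homoeologous group holds 1 chromosome of each.

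Both peak lists came from wild-type JW1 spikelets at booting stage (Feekes 10), with 1 library per mark. The CAGE tags came from untreated plants of the cultivar Chinese Spring, as 4 libraries of 9-day seedlings (above-ground parts from soil), 2 of booting-stage (Feekes 10) spikelets, called spike here, 3 of immature embryos at 14 days post anthesis and 2 of 9-day roots grown in Hoagland solution. Chromatin marks and tags thus differ in cultivar as well as in assay, and for the 3 other tissues also in tissue, and these differences cannot be told apart. The CAGE libraries held between 2970800 and 24399682 uniquely mapped tags, 123747891 in all. Control (CK) spikelets at the same stage, without the knockdown, which the labels call wild-type Fielder and the study's methods JW1, were sequenced as 3 RNA-seq libraries and served only to give a transcript level for a few listed genes. The labels do not say that replicates came from separate plants, so p-values measure the spread between these libraries, which may be technical.

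One peak with both marks held the stretch that the study silenced by RNA interference, and its sequence is shown because the designed target can be read base by base against the tags. The target stems from an enhancer-like element of RLG_famc7.3, a family of Gypsy-type retrotransposons with many related copies in the genome, and only uniquely mapped tags were counted. This peak, chr5A:119548245-119549089 (IWGSC reference sequence v1.0), was 845 bp long, and a single H3K9ac piece covered 74.2% of it. Of the study's pair of overlapping target regions, the first, chr5A:119548414-119548613, plus strand, is written below, with capitals at the bases where at least 1 CAGE tag of the plus strand began.
Target region 1: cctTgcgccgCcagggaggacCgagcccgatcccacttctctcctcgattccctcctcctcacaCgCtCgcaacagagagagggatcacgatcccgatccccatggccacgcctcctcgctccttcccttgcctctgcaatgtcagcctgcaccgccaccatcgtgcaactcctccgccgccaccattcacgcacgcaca
All 323 plus-strand tags of the target began at the 6 bases in capitals, and no tag of the minus strand fell in either target region. Counting from 1 at the 5′ end, base 11 held 103 tags and base 22 held 76 tags, all from spike replicate 2. Base 65 held 47 tags of spike replicate 2 and 24 of root replicate 2. Base 4 held 20 tags of embryo replicate 2, base 67 held 18 of embryo replicate 1, and base 69 held 8 of seedling replicate 1 and 27 of seedling replicate 3. Over the whole peak the level was 9.26 tags per 1000000 tags of the library (RPM) in spike replicate 2 and 0 in spike replicate 1, where a count of 0 allows up to 0.493 RPM. Seedling replicate 3 had 17.7 RPM, seedling replicate 1 had 0.982 RPM and seedling replicates 2 and 4 had 0. All 81 minus-strand tags of the peak came from seedling replicate 3 and lay outside the target regions. Only 27 of the 108 tags of that library in the peak began in the target. Embryo libraries had 1.19, 6.73 and 0 RPM, and root libraries had 0 and 1.43 RPM. Libraries of every tissue overlapped in these levels, which count both strands. A difference of spike from the mean of the other tissues was not called (log2 fold change 1.39 ± 2.17, SE, adjusted p = 0.864, edgeR's quasi-likelihood test). With an SE above the estimate and 0 tags in spike replicate 1, the test cannot show that there was no difference.

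Peaks with both marks had a median length of 651 bp, with a range from 200 to 1499 bp and 10% of them below 288 bp. H3K4me3 peaks without H3K9ac had a median of 259 bp, and 32.0% of them lay at 200 bp, the shortest length in both lists, against 3.16% of the peaks with both marks. The share of short H3K4me3 peaks with H3K9ac was 16.1% at 200 bp, 42.7% from 201 to 399 bp, 77.0% from 400 to 599 bp and 94.3% from 1000 to 1499 bp. A longer interval has more room for an overlap, and the part of length in this order was not tested. Just inside the length limit stood chr1A:118849015-118850513, chr1D:469052334-469053832 and chr2A:104919807-104921305, each 1499 bp with 1 H3K9ac piece. Just outside it stood chr1A:147690175-147691674 with 2 pieces and chr1A:398050041-398051540 and chr1B:538867283-538868782 with 1 piece each, all 1500 bp long.

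The H3K9ac signal was a single block in nearly all of these peaks. One piece was found in 119991 peaks (97.5%), 2 pieces in 3005 (2.44%) and 3 pieces in 25, and no peak had more. Median length was 642 bp with 1 piece, 1151 bp with 2 and 1400 bp with 3. Among peaks with 1 piece, the piece lay wholly inside the H3K4me3 peak in 63.9%, overhung 1 side in 28.7% and enclosed the peak in 7.41%. The piece was shorter than the H3K4me3 peak in 81.8%, with a median length of 497 bp. The centres of both marks were a median of 35.5 bp apart, and within 100 bp of each other in 82.3%. H3K9ac covered a median of 80.5% of the H3K4me3 peak (10th percentile 47.2%, 90th percentile 97.7%), and it covered at least 50% in 108862 peaks. Marginal overlaps were few, as 677 peaks (0.550%) shared under 50 bp with H3K9ac. Conversely, 11288 of the short peaks without H3K9ac (17.7%) had an H3K9ac peak within 1000 bp. H3K9ac also had many peaks elsewhere, since 209498 of 343721 H3K9ac peaks touched no H3K4me3 peak.

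By subgenome, 41420 peaks with both marks lay on A, 41525 on B and 36654 on D, and 3422 were on unplaced sequence. The D subgenome was the densest, with 9.28 per Mb against 8.39 on A and 8.02 on B. Chromosome 5D had the highest density (10.4 per Mb) and 4B the lowest of the assembled chromosomes (7.49 per Mb). In each of the 7 homoeologous groups the D chromosome was the densest, and A exceeded B in all groups but group 5, where 5A had 8.77 and 5B 8.88 per Mb. Peaks on B were also shorter (median 634 bp) than those on A (674 bp) and D (666 bp). H3K4me3 peaks without H3K9ac were likewise densest on D, with 4.97 per Mb against 4.14 on A and 4.29 on B. The share of short H3K4me3 peaks with H3K9ac was close between subgenomes, at 67.0% on A, 65.1% on B and 65.1% on D. With 1 peak list per mark, these counts have no error between samples. Mappability, which differs between subgenomes, was not tested.

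**Figure D1:**
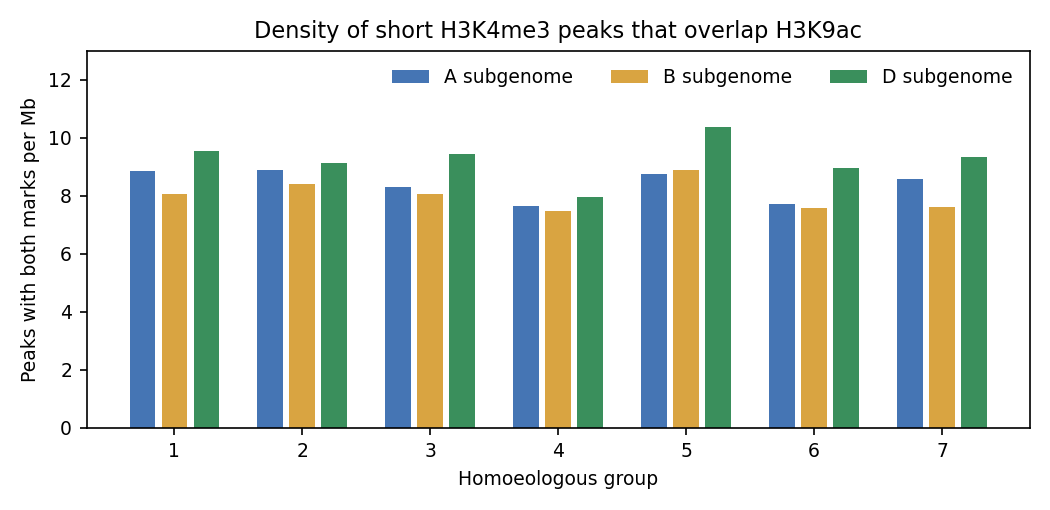
Bars show the number of H3K4me3 peaks with both marks per Mb (y axis) on the A, B and D chromosomes of each homoeologous group (x axis). The D chromosome stands highest in every group, up to 10.4 per Mb on 5D.

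Along the chromosomes, density rose towards the ends. The outermost bins, within 10% of the chromosome length from either end, held 36084 peaks with both marks (30.2% of those placed) at 12.8 per Mb, and the innermost bin, 40 to 50% from the nearer end, held 5.69 per Mb. The bins between had 9.79, 7.79 and 6.41 per Mb from the ends inwards. H3K4me3 peaks without H3K9ac had the same order, from 7.10 per Mb at the ends to 3.05 in the middle, so the share with H3K9ac stayed between 64.4% and 67.0% in the 5 bins. The outermost bins held 31.4% of these peaks on A, 28.7% on B and 30.6% on D.

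CAGE tags were used by neither part of the selection. In single libraries, between 16.6% (seedling replicate 2) and 34.3% (spike replicate 2) of the peaks with both marks held at least 1 tag. Short H3K4me3 peaks without H3K9ac held a tag in 1.90% to 5.76% of cases, which was 5.95 to 8.70 times less often, in 11 of 11 libraries. H3K4me3 peaks of at least 1500 bp held a tag in 22.3% to 51.1% of cases, above the short peaks with both marks in 11 of 11 libraries. The background was read in windows of the same length, 10 kb to the right of each peak and free of both marks (115142 windows), of which 0.506% to 1.36% held a tag. These shares describe regions and carry no p-value, since regions are not replicates. In bulk tissue, fewer cells of a type and less RNA per cell cannot be told apart.

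**Figure D2:**
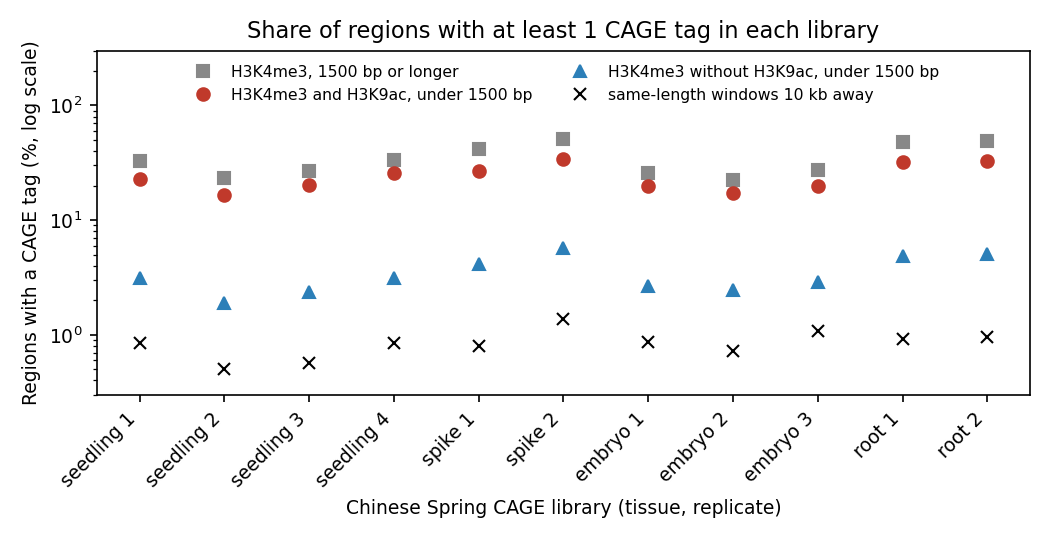
Points give the share of regions with at least 1 CAGE tag (y axis, percent, log scale) in each of the 11 libraries (x axis) for short peaks with both marks, short H3K4me3 peaks without H3K9ac, H3K4me3 peaks of 1500 bp or longer, and same-length windows 10 kb away. Short peaks with both marks lie between 16.6% and 34.3%, above the peaks without H3K9ac and below the long peaks in every library.

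Depth moved these shares. With each library reduced to the size of the smallest one, peaks with both marks held a tag in 15.1% to 22.4% of cases in seedling, 24.5% and 27.8% in spike, 16.1% to 17.2% in embryo, and 28.5% and 27.9% in root. At that equal number of tags, both spike and both root libraries lay above all seedling and embryo libraries. Tags per occupied base and the share of tags inside the peaks still differed between libraries, and their part in this order was not tested. A library that is 0 at a peak still allows a level of 0.123 RPM (spike replicate 2) to 1.01 RPM (embryo replicate 2). Inside the peaks with both marks, an occupied base held a median of 4 to 14 tags per library, and 17.1% to 27.5% of occupied bases held a single tag. The reads carry no molecular identifier in the sources used here, so tags are not independent molecules and intervals cover counting error only.

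Peak length and the presence of H3K9ac were examined together, because peaks with both marks were longer. At 200 bp both classes were alike, with a tag in 1.20% ± 0.519 (SD, n = 11 libraries) of peaks with both marks and 1.00% ± 0.393 of peaks without H3K9ac, and the former was higher in 9 of 11 libraries. From 201 to 399 bp the values were 8.99% ± 2.43 and 3.72% ± 1.30. From 400 to 599 bp they were 25.4% ± 5.80 and 6.20% ± 2.19, and from 600 to 799 bp 30.7% ± 7.60 and 7.10% ± 2.80. In all bins above 200 bp the peaks with both marks were higher in 11 of 11 libraries. The SD holds the differences between tissues and depths and does not describe the difference within a library, which was 3.36 to 6.69 times for every bin from 400 bp upwards.

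**Figure D3:**
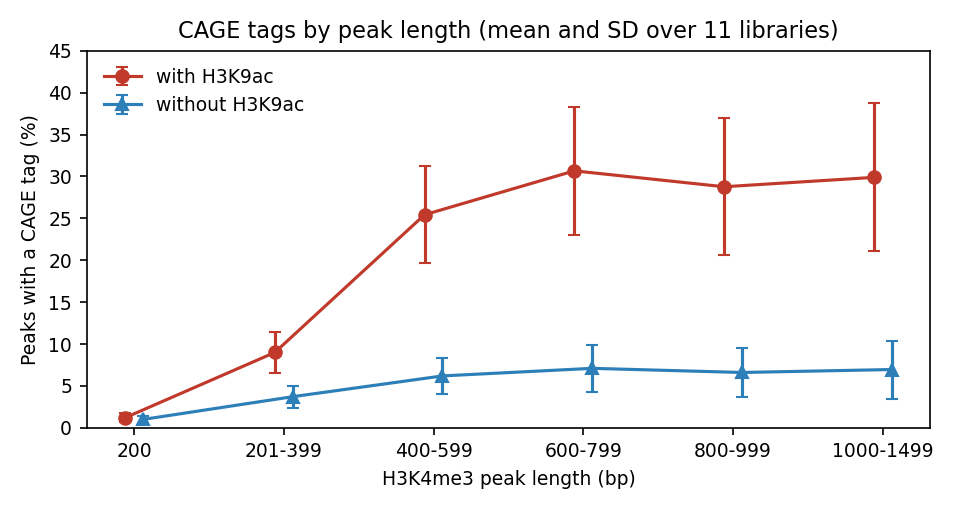
Points show the mean share of H3K4me3 peaks with a CAGE tag (y axis, percent) by peak length (x axis, bp), with the SD over 11 libraries as bars, for peaks with and without H3K9ac. Peaks with H3K9ac level off near 30% from 600 bp upwards and peaks without it near 7%.

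Within these H3K4me3 peaks, the extent of H3K9ac went with the tags as well. H3K9ac peaks without H3K4me3, with a median length of 222 bp, held a tag in only 0.137% to 0.420% of cases per library. Among peaks of 400 to 999 bp, a tag was found in 6.34% ± 3.13 (SD, n = 11 libraries) where H3K9ac covered under 25% of the peak, in 13.7% ± 4.43 from 25 to 50%, in 27.8% ± 6.70 from 50 to 75% and in 31.2% ± 7.79 above that. Median lengths in these classes were 835, 665, 659 and 670 bp. The number of pieces made less difference. For peaks of at least 1000 bp, 30.3% ± 8.93 with 1 piece and 26.5% ± 7.95 with 2 pieces held a tag. The first of the 25 peaks with 3 pieces by position, chr1A:256966504-256967885, had no tag in any library.

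In terms of tag number, peaks with both marks took up 0.577% of the span of the assembly and 47.2% to 54.8% of the tags in seedling, 51.2% and 50.7% in spike, 52.0% and 51.5% in root, but 34.9%, 36.7% and 29.8% in the 3 embryo libraries. Wilson 95% intervals of these shares were at most 0.110 percentage points wide. Every embryo library lay below every library of the other tissues. Per kb, peaks with both marks had 3.56 to 6.53 RPM, the long H3K4me3 peaks 1.17 to 3.59 RPM, and the short peaks without H3K9ac 1.27 to 2.45 RPM. The order of long and short peaks was thus opposite for tag density and for the share with a tag, in 11 of 11 libraries. Tags were concentrated in few peaks. Between 174 and 568 peaks (0.141% to 0.462%) held 50% of the tags of all peaks with both marks, and the uppermost 1% held 59.9% to 75.4%.

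The subgenomes were close in the share of peaks with a tag. This share was highest on D in 11 of 11 libraries, and lowest on B in 8 and on A in 3. In root it was 34.2% ± 0.363 (SD, n = 2) on D, 32.7% ± 0.724 on A and 31.7% ± 0.318 on B. The widest gap between subgenomes in any library was 3.07 percentage points. Of the tags in these peaks, A held 37.9% ± 0.118 in spike and 41.5% ± 2.39 (n = 3) in embryo, B held 30.2% and 27.0%, and D held 31.3% and 30.9%. A single A peak, chr5A:533277953-533278730, described below, held 9.39% and 9.46% of these tags in spike and 15.2%, 9.21% and 15.5% in embryo. Without it, an alternative added after the data were seen, A held 31.5% ± 0.0946 in spike and 32.5% ± 0.715 in embryo, and D held the most tags in both, with 34.6% ± 0.119 and 35.6% ± 0.566.

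The start sites inside the peaks lay off centre. For each peak with at least 10 tags over all libraries (61505 peaks), the base with the most tags was taken as the dominant start site and the peak was oriented by its strand. The start site was a median of 150 bp from the upstream edge of the H3K4me3 peak and 461 bp from the downstream edge, at 23.2% of the peak's length. It lay in the upstream 50% of the peak in 44199 peaks (71.9%), in the first 20% in 44.6% and in the last 20% in 9.93%. Read separately, the 11 libraries gave 73.8% to 82.5% in the upstream 50%, so every library had the same orientation. H3K4me3 peaks without H3K9ac were less skewed (60.7%, 6914 peaks), as were long peaks (55.0%, 4798 peaks). Within the peaks with both marks, the share was 78.8% at 200 to 399 bp and 80.9% at 400 to 599 bp, and fell to 59.9% at 1000 to 1499 bp. Both strands were used equally as the dominant one (50.1% plus).

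The H3K9ac piece lay in the middle of the H3K4me3 peak. Among 59889 of these peaks with a single piece, oriented by strand, its centre was at a median of 49.5% of the H3K4me3 peak, with gaps between the edges of both marks of 53 bp upstream and 60 bp downstream. The off-centre position was thus that of the start site within both marks, and the values around the start site that follow show no separate orientation of H3K9ac. The piece reached from a median of 92 bp upstream of the start site to 388 bp downstream, inside an H3K4me3 peak that reached from 148 bp upstream to 459 bp downstream. The share of peaks with H3K9ac was 45.5% at 100 bp upstream, 77.9% at the start site, 85.0% at its highest point 80 bp downstream, and 47.9% at 400 bp downstream. H3K4me3 had 66.0% at 100 bp upstream and 93.9% at 100 bp downstream. The start site was inside the piece in 46637 peaks (77.9%), close to the 78.3% that the piece's average cover of the peak would give. Where it lay outside, it was upstream of the piece in 9963 of 13252 peaks (75.2%).

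**Figure D4:**
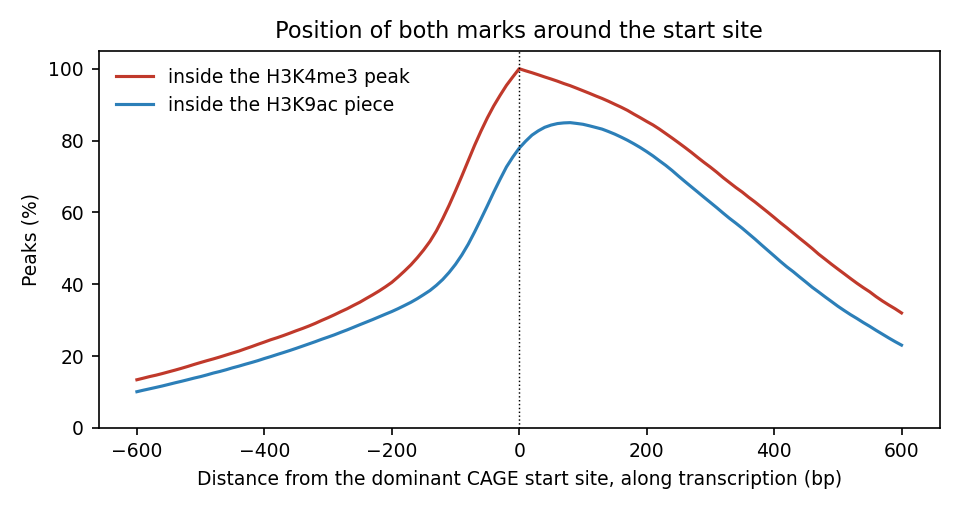
Lines give the share of peaks (y axis, percent) in which the H3K4me3 peak or its H3K9ac piece covers a base at the given distance from the dominant CAGE start site (x axis, bp, positive along transcription), for peaks with 1 piece and at least 10 tags. H3K9ac is highest 80 bp downstream (85.0%), and both marks reach further downstream than upstream. H3K4me3 is 100% at 0 because start sites were sought inside its peaks.

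Tags of both strands were common at a low level when all libraries and tissues were pooled. Tags of both strands were found in 25160 of the 61505 peaks (40.9%), and the lesser strand held at least 10% of the tags in 10796 (17.6%), against 9.49% of short peaks without H3K9ac and 27.9% of long peaks. In 3185 of the 10796 (29.5%) the minus-strand start site lay left of the plus-strand one, as in a divergent promoter, a median of 186 bp apart. In 7598 it lay to the right, so that transcripts from these sites would face each other, a median of 250 bp apart. Whether both strands were used in the same library or tissue was not tested.

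The exact base varied. Between 22.5% and 29.2% of peaks with at least 10 tags in each of 2 replicates of 1 tissue had the same dominant base, and 52.7% to 57.3% had both within 20 bp, over 11 pairs of replicates. Between pooled tissues, 20.9% to 25.6% shared the base and 47.3% to 51.2% lay within 20 bp. The ranges for the same base overlapped, and those for 20 bp did not, with tissues below replicates. Pooled tissues hold more tags than single libraries, and the difference was not tested.

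Detection over tissues was counted as at least 1 tag in at least 2 libraries of a tissue. By this count, 29904 peaks with both marks (24.3%) were detected in root, 29032 (23.6%) in seedling, 25648 (20.8%) in spike and 20060 (16.3%) in embryo. Root and spike had 2 libraries each, seedling 4 and embryo 3, so these shares are not on 1 footing. In short peaks without H3K9ac the shares, in the same order, were 3.17%, 2.59%, 2.50% and 1.84%. In all, 10730 peaks (8.72%) were detected in all 4 tissues, 7850 in 3, 10423 in 2, 17328 in 1 and 76690 (62.3%) in none. Detected in a single tissue were 5660 peaks in seedling, 5465 in root, 3872 in spike and 2331 in embryo. A tag in every one of the 11 libraries was found in 4992 peaks (4.06%), against 157 (0.247%) of the peaks without H3K9ac. No tag in any library was found in 50487 peaks (41.0%), and these had a median length of 500 bp, against 726 bp for the rest.

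A part of the peaks had tags in other tissues but none in spike. Of 42459 peaks detected in seedling, embryo or root, 9331 (22.0%) had no tag in either spike library. The matching shares for the other tissues and for other H3K4me3 peaks were not computed, so this share is not read as a trait of spike or of these peaks. Replicates also differed, as 48.0% of the peaks with a spike tag had it in 1 of the 2 libraries only, and 39.3% in root.

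Tissue differences were tested with edgeR on tags in all H3K4me3 peaks, each tissue being set against the other 3 averaged. A peak was called when its p after Benjamini-Hochberg adjustment was under 0.05 and the change was at least 2-fold. Of the 123021 peaks with both marks, 40200 passed the filter on low counts, within 46774 H3K4me3 peaks tested. Seedling had the most calls, with 3276 peaks with both marks higher (8.15% of those tested), where 8.5% of all peaks tested were called higher, and 788 lower (1.96%), where 2.23% of all were. In spike 799 were higher (1.99%, background 2.3%) and 57 lower (0.142%, background 0.167%). In embryo 748 were higher (1.86%, background 2.28%) and 841 lower (2.09%, background 2.23%). In root 394 were higher (0.980%, background 1.16%) and 228 lower (0.567%, background 0.594%). Each share lay near its background, of which peaks with both marks are the larger part themselves. Of the short peaks without H3K9ac, 3071 were tested (4.83%), and their shares called higher were 12.1% for seedling, 7.55% for embryo, 4.95% for spike and 2.80% for root, with 4.49%, 2.64%, 0.423% and 0.847% called lower. All 8 shares were above those of peaks with both marks, as a description with no test. Long H3K4me3 peaks, of which 6405 of 6600 overlapped H3K9ac, were also above peaks with both marks in all 8 shares. Their shares called higher were 9.36% for seedling, 2.43% for embryo, 3.6% for spike and 1.74% for root. Peaks with both marks were thus below both other classes, and the part of H3K9ac in this order was not tested. The part of the filter, which kept few peaks without H3K9ac, was not tested. Leaving out root replicate 1 or 2 lowered the seedling count of higher peaks to 2012 or 1988, and leaving out seedling replicate 1 raised the spike count of higher peaks to 1280.

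The split of calls between higher and lower differed between settings. Higher peaks made up 93.3% of the calls in spike, 47.1% in embryo and 63.3% in root by TMM, 94.4%, 37.2% and 85.7% by library totals, and 49.4%, 36.2% and 32.6% by DESeq2, which changed the test as well as the size factors. In seedling the same shares were 80.6%, 77.0% and 72.5%. DESeq2 also left 13951, 20469, 15943 and 19841 of the 40200 tested peaks with both marks without an adjusted p (seedling, spike, embryo, root). These could not be called by it. The median log2 difference over all peaks tested (seedling, spike, embryo, root) was −0.00, 0.83, −0.74 and 0.59 by TMM, and −0.22, 0.90, −1.14 and 1.13 by library totals, and the medians of peaks with both marks by TMM were 0.06, 0.79, −0.63 and 0.56. Calls were made at a 2-fold change counted from no difference, and were not re-centred on these medians. The splits and counts of calls therefore include these offsets. At least 1 call in either direction was made for 5292 peaks with both marks (13.2% of those tested), and 4150 (10.3%) were called higher in a single tissue. The matching shares over all H3K4me3 peaks tested were not computed, so these counts are not read as a trait of peaks with both marks. Peaks with both marks called higher had a median length of 740 bp in seedling, 801 bp in spike, 742 bp in embryo and 761 bp in root, against 741 bp in all peaks with both marks that were tested. Their H3K9ac covered a median of 80.6%, 75.2%, 74.6% and 79.0%, against 81.6%. On A, B and D, 1.88%, 1.92% and 2.14% of tested peaks with both marks were higher in spike, and 7.74%, 8.45% and 8.23% in seedling. The same shares were 1.65%, 1.88% and 2.03% in embryo and 0.831%, 1.04% and 1.05% in root. Shares of all H3K4me3 peaks tested per subgenome were not computed.

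The peak with the highest mean level was the same in all 4 tissues. In chr5A:533277953-533278730 (778 bp, H3K9ac over 81.7%) the level was 22894, 21694, 12315 and 10108 RPM in seedling, 48096 and 47973 in spike, 53165, 33779 and 46168 in embryo and 14509 and 13890 in root. Spike and embryo libraries were all above those of seedling and root. In seedling its place rested on replicate 1, without which its mean was 14705 RPM against 17549 RPM for chr4B:10436637-10437316, and the latter was higher in seedling replicates 3 and 4. The difference was called for embryo (log2 1.45 ± 0.31, SE, adjusted p = 0.00872, edgeR) and for root (−1.80 ± 0.43, adjusted p = 0.0364), and not for spike (1.00 ± 0.35, adjusted p = 0.13). Tags began 335 bp inside the upstream edge.

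The peak next in level in seedling was chr4B:10436637-10437316, and the peak next in root was chr4D:5784615-5785189. The former had 7698, 19334, 14773 and 18541 RPM in seedling, 4686 and 5573 in spike, 84.9, 107 and 112 in embryo and 8186 and 8028 in root. The latter had 7706, 17679, 11591 and 14816 RPM in seedling, 1203 and 1263 in spike, 288, 180 and 220 in embryo and 8691 and 8851 in root. Both were lowest in all embryo libraries, with log2 differences of −5.96 ± 0.43 (adjusted p = 2.47e-07, edgeR) and −4.02 ± 0.41 (adjusted p = 6.39e-06).
In spike the next peak was chr2D:472945399-472945819, with 6176 and 5582 RPM in spike and 4502 and 4766 in root, while seedling had 2800, 681, 440 and 349 and embryo 494, 581 and 550. Both spike libraries were above all others, yet the test did not call the difference (log2 1.94 ± 0.56, adjusted p = 0.0633, edgeR).
In embryo the next peak was chr1A:364046561-364047028, in which the study's start-site list places TraesCS1A02G202900. It had 6699, 5986 and 3445 RPM in embryo and at most 5.31 RPM in any other library. The embryo difference was called (log2 11.65 ± 1.04, adjusted p = 1.17e-06, edgeR). Transcripts of this gene stood at 1.28, 0 and 0 fragments per kilobase and 1000000 fragments (FPKM) in the 3 CK spikelet libraries. This peak carried both marks in JW1 spike, and its level in Chinese Spring spike was 2.30 and 1.60 RPM.

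By the smallest p among peaks whose libraries of a tissue all stood on one side of the rest, 2 higher peaks and 1 lower peak were taken per tissue. Being chosen in this way, their p-values and separation are a description and no separate support. In seedling these were chr6A:588230263-588230696 and chr2D:63709899-63710707. The former had 10627, 14179, 8553 and 6848 RPM in seedling, 1350 and 1148 in spike, and at most 1.88 RPM in every embryo and root library (log2 9.88 ± 0.39, adjusted p = 5.76e-11, edgeR). The latter had 6044, 3732, 9558 and 5880 RPM in seedling, 242 and 335 in spike, and at most 1.35 RPM in embryo and root (10.52 ± 0.46, adjusted p = 1.96e-10). In both, spike stood between seedling and the other tissues. The chr6A peak was at the same time the lower peak of embryo (−7.72 ± 0.49, adjusted p = 1.23e-07).
The lower peak of seedling was chr7D:71864010-71864629. It had 0.123, 0, 0.327 and 0.663 RPM in seedling against 418 to 690 RPM in the other 7 libraries (−10.53 ± 0.84, adjusted p = 1.44e-07, edgeR).

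In spike the higher peaks were chr2D:633835527-633836581 and chr3B:385142883-385143748. The first had 481 and 651 RPM in spike, with 3 tags in all other libraries together against 18814 in spike, a ratio of 19186 with an exact counting interval from 6564 to 93045. The second had 931 and 852 RPM in spike, with 4 tags elsewhere against 26458 in spike, a ratio of 20236 (7903 to 74276). Both had an adjusted p of 1.81e-06 (edgeR). Both passed the filter on low counts through the spike libraries alone, so neither this p nor the ratios are separate support for a spike difference. Tags were confined to spike but for these few, while H3K9ac covered only 47.2% and 35.2% of the H3K4me3 peaks.
The lower peak of spike, chr5A:656044198-656045452, had 20.2 and 24.1 RPM in spike and 64.0, 39.4 and 74.3 in embryo, against 9315, 2374, 2646 and 3611 in seedling and 6454 and 6484 in root (−5.89 ± 0.81, adjusted p = 0.000446, edgeR). Embryo was low there as well.

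In embryo the higher peaks were chr3B:421612160-421612889 and chr4D:7184117-7185194. The former had 1587, 1593 and 1016 RPM in embryo and 0.493 to 5.43 RPM elsewhere (log2 10.07 ± 0.69, adjusted p = 1.63e-07, edgeR). The latter had 1705, 1390 and 1605 RPM in embryo and 0 to 1.11 RPM elsewhere (12.03 ± 0.88, adjusted p = 2.47e-07), and passed the filter on low counts through embryo alone. H3K9ac covered 97.4% of the former and 35.2% of the latter, so a large difference went with wide and with narrow cover.
In root the higher peaks were chr3A:502842492-502843269 and chr5D:528214489-528215658. The former had 3940 and 4202 RPM in root and 12.3 to 64.6 RPM elsewhere (6.36 ± 0.44, adjusted p = 1.08e-06, edgeR). The latter had 6510 and 6751 RPM in root and 5305, 2069, 2114 and 2494 in seedling, but at most 45.2 RPM in spike and embryo (5.20 ± 0.47, adjusted p = 1.41e-05). Seedling stood next to root in this peak. The lower peak of root, chr4A:535243670-535244083, had 0.105 and 0.0597 RPM there, from 2 tags, and 0.132 to 0.337 RPM in embryo, against 165, 1008, 623 and 598 in seedling and 79.4 and 51.1 in spike (adjusted p = 0.000328, edgeR).

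**Figure D5:**
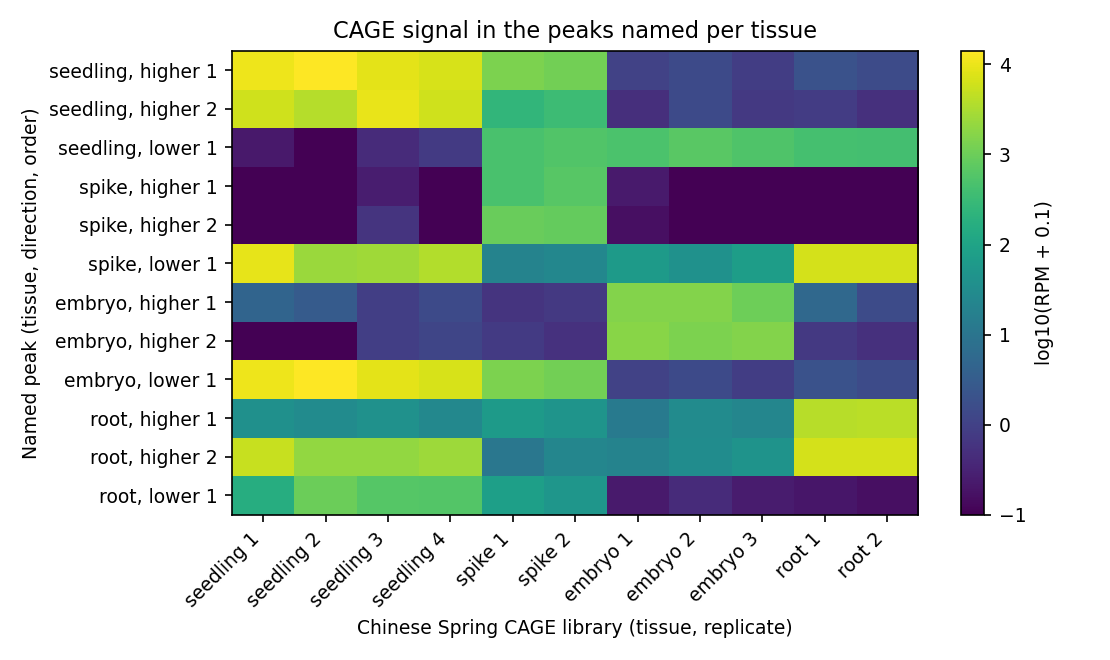
Colours give log10(RPM + 0.1) in the 11 CAGE libraries (columns, tissue and replicate) for the peaks named by the smallest p (rows, ordered by tissue, direction and order in the text). The rows of higher peaks are bright in embryo alone for embryo and in spike alone for spike, while the second root row is bright in root and seedling and the seedling rows show an intermediate level in spike.

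The peak named as lower in embryo is the first seedling peak. As a further look at genes, chosen after the values were seen, the 5 peaks with both marks on chromosome 1A with the highest mean spike level and a single gene in the readable part of the study's start-site list were set beside the RNA-seq of CK spikelets, which are not of the cultivar Chinese Spring. The list was readable for chromosome 1A only. In chr1A:19897044-19897829, TraesCS1A02G035800 had 447 and 383 RPM in spike and 31.4 to 214 RPM elsewhere, and its transcripts had 124, 23.9 and 136 FPKM. In chr1A:94248512-94249120, TraesCS1A02G097700 had 518 and 293 RPM in spike and 445 and 446 in root, with 66.4, 53.9 and 48.3 FPKM. Neither was called for spike (adjusted p = 0.16 and 0.264, edgeR).
In chr1A:132415846-132416327, TraesCS1A02G120000 had 381 and 272 RPM in spike and 13.6 to 247 RPM elsewhere, with only 3.15, 1.71 and 3.59 FPKM (spike log2 2.13 ± 0.57, adjusted p = 0.0534, edgeR). In chr1A:463247331-463248354, TraesCS1A02G268400 had 281 and 343 RPM in spike, 16.9 to 56.9 RPM in seedling and root and at most 0.450 RPM in embryo, and it was higher in spike (5.28 ± 0.67, adjusted p = 0.000214) and lower in embryo (−7.14 ± 1.00, adjusted p = 0.000201). Its transcripts had 115, 28.5 and 122 FPKM.
In chr1A:480604397-480605877, which had 2 H3K9ac pieces, TraesCS1A02G282600 had 196 and 225 RPM in spike and 0 to 37.3 RPM elsewhere, and 17.7, 3.67 and 17.7 FPKM. The difference was not called (4.42 ± 1.40, adjusted p = 0.0936, edgeR). In 3 of these 5 genes CK replicate 2 lay far below the other two CK libraries, and start-site level and transcript level did not stand in 1 ratio, since TraesCS1A02G120000 had a start-site level near that of TraesCS1A02G268400.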

How the data were processed

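The regions and the gene and tissue comparisons were chosen with earlier results of these data known. The deposited CAGE tables count the uniquely mapped 5′ ends at each base and strand, from reads that the authors trimmed with Cutadapt, cleared of ribosomal and organellar reads with SortMeRNA, mapped to IWGSC RefSeq v1.0 with Bowtie2, and cleared of reads without an added 5′ end. Deposited peak files give positions only, with no score, so no stricter peak threshold could be tried. Per the labels, JW1 reads passed fastp 0.22.0, BWA 0.7.17-r1188 and MACS 1.4.2, whereas the study's methods name MACS2. No input library is named in the sources used here. The authors' FPKM values of CK spikelets were read as given. The labels call CK wild-type Fielder, and the study's methods name JW1. The source label of all Chinese Spring CAGE libraries says 12-days-old seedlings, and tissue was taken from title and age labels. CAGE totals ran from 2970800 to 24399682 tags, so a count of 0 allows 0.123 to 1.01 RPM.

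Chromosomes are split in the files. Offsets of second parts were found from listed cluster ends (1455 of 1455 fell on a tag). Tags per H3K4me3 peak were fitted with edgeR 4.0.16 (TMM on library totals, filterByExpr, quasi-likelihood test, 1 coefficient per tissue) over all peaks. SE is the log2 value divided by the root of F. Alternatives were DESeq2 1.42.0, library totals without TMM, other count filters, extended peaks, the replicate block and leaving out each library. RPM are tags per 1000000 tags of a library. Named peaks were the 2 with the highest mean RPM per tissue, 2 higher and 1 lower per tissue by p, the one with most H3K9ac pieces, those at the length limit and any at the silenced target. The code was tested on simulated counts. No replicate pair agreed within sampling noise. Other assays, knockdown lines and other genotypes were not used here.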

Additional observations from a re-analysis of the deposited data

Results flagged for a closer look

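Only seedling, with 4 libraries, allowed a search for a library far from its group, and 6 of 27 sets of values had one by Dixon's ratio at the 95% level, where chance flags about 1 in 20. In 2 of the 6 the other libraries were at 0, so that any tag passes, and only 4 can be set against chance. In chr2D:472945399-472945819 seedling replicate 1 had 2800 RPM and the others 349 to 681. In chr5D:528214489-528215658 seedling replicate 1 had 5305 RPM and the others 2069 to 2494. In chr1A:463247331-463248354 seedling replicate 3 had 44.2 RPM and the others 16.9 to 19.6. In chr5A:119548245-119549089, the peak with the silenced target, seedling replicate 3 had 17.7 RPM and the others 0 to 0.982. These 17.7 RPM include 81 minus-strand tags that lay outside the target. In the spike peaks chr2D:633835527-633836581 and chr3B:385142883-385143748, seedling replicate 3 had 0.164 and 0.491 RPM, no more than a count of 0 allows in that library (0.491 RPM), and the others had 0.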

How the results depend on the processing

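The number of peaks with both marks stayed within 1.5 times (102685 to 127795) under other limits of length and overlap. The share detected in seedling, spike, embryo and root was 20.6%, 18.4%, 14.2% and 22.1% with at least 2 tags, 14.0%, 12.9%, 9.89% and 16.6% with at least 10 tags, 26.3%, 23.5%, 18.6% and 27.0% with peaks extended by 250 bp, 20.8%, 17.3%, 13.9% and 20.4% at the depth of the smallest library, and 25.4%, 22.3%, 17.5% and 25.9% where H3K9ac covered at least 50%. Without 1 library it was 17.8% to 21.3% in seedling and 10.7% to 11.9% in embryo. A higher tag minimum, a lower depth or the loss of a library can only lower this share, and extended peaks can only raise it. The direction of these changes was thus fixed, and only their size is described. With 2 libraries, spike and root gave no such value.

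Counts of calls depended on the settings, which also changed the number of peaks tested. Peaks with both marks tested were 40200 by library totals and by DESeq2. They were 72534 with a minimum of 1 tag, 44958 with a minimum of 50 tags and 46328 with extended peaks. Shares called over all H3K4me3 peaks were not computed for these settings, so the counts are not on 1 footing. By library totals without TMM, 1449 and 1666 peaks were higher in spike and root and 86 lower in spike. With a minimum of 1 tag in all libraries together, higher and lower peaks numbered 1336 and 152 in spike, 1313 and 1296 in embryo and 714 and 414 in root, and with a minimum of 50 tags 1660 and 165, 2157 and 1559, and 808 and 429. Extended peaks gave 95 lower in spike, and 1522 higher and 368 lower in root. DESeq2 gave 1805 lower in seedling, 672 lower in spike, 1710 higher and 3008 lower in embryo and 1156 lower in root. The cause of these changes was not tested. Of higher calls, DESeq2 shared 365 in root, 713 in embryo, 592 in spike and 2989 in seedling. It left 13951 (seedling) to 20469 (spike) of the tested peaks with both marks without an adjusted p.

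Without 1 library, higher and lower peaks ranged from 1988 to 3365 and from 508 to 996 in seedling, from 563 to 1280 and from 38 to 103 in spike, from 422 to 976 and from 527 to 1028 in embryo, and from 243 to 502 and from 154 to 343 in root. The lone spike or root library was then assumed to vary like the other groups. The filter on low counts also kept more peaks with both marks in these fits. It kept 54339 or 52354 without spike replicate 1 or 2, and 53238 or 53008 without root replicate 1 or 2, against 40200. Besides the libraries named above, the count moved over 1.5 times for lower peaks of seedling without seedling replicate 3 (508) or 4 (517), and for lower peaks of spike without seedling replicate 1 (103) or root replicate 1 (97) or 2 (95). Higher peaks of embryo fell to 488 or 477 without spike replicate 1 or 2, 422 or 469 without embryo replicate 1 or 3, and 440 or 428 without root replicate 1 or 2. Lower peaks of embryo fell to 536 or 527 without embryo replicate 1 or 3, higher peaks of root to 243 without root replicate 2, and lower peaks of root rose to 343 without spike replicate 1.

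Replicate numbers did not pair the libraries, since the deviations of 13 same-numbered pairs correlated between −0.02 and 0.01. With the replicate block, 1893 peaks were higher and 481 lower in seedling, and the counts of the other tissues stayed within 1.5 times. The 12 calls by which 11 peaks were named kept their direction and both thresholds in 204 of 204 alternative values. These peaks were picked by the smallest p and by separation in the same libraries. Such an outcome was therefore built into the choice and is no separate support.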
